A study of Mus musculus with 2 samples.

Results

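Mast cells of mouse colon tumours were described in 171 of 22104 droplet barcodes, 124 of 10638 in one library and 47 of 11466 in the other. A barcode counted as a cell when it carried at least 1000 unique molecular identifiers (UMIs, each marking 1 captured RNA molecule) and 200 genes, with at most 25% of its UMIs from mitochondrial genes. It counted as a mast cell when the 6 granule protease genes Cpa3, Mcpt1, Mcpt2, Mcpt4, Cma1 and Tpsb2 together made up 2% or more of its UMIs. The cells were thus chosen by the measured levels of these 6 genes, which are given below only to describe them.

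The tumours came from mice given AOM and DSS, a carcinogen and a colon irritant that together induce colon tumours. By its label, 1 library is from Gsk3b (IEC+/+) mice, whose intestinal epithelium keeps the kinase gene Gsk3b (the WT library), and 1 from Gsk3b (IEC-/-) mice, whose intestinal epithelium has lost it (the KO library). Tumours of both genotypes were dissociated and read with 10x Genomics droplet chemistry, version 3, which tags the 3′ end of each RNA. The number, age and strain of the mice, the Cre line and the deleted part of Gsk3b are not given in the sources used here. Genotype and library cannot be told apart, since each genotype has 1 library. The libraries were compared without a statistical test, and every interval below is a 95% interval that covers counting error only.

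Mast cells are long-lived immune cells of mucosa, skin and vessel walls that depend on the growth factor receptor KIT and carry IgE on the receptor FcεRI. On activation they release granules filled with histamine, proteoglycans and proteases, and they also make lipid mediators, cytokines and chemokines. In mice, mucosal mast cells of the gut are known for the chymases Mcpt1 and Mcpt2, and connective tissue mast cells for the chymases Mcpt4 and Cma1, the tryptases Tpsb2 and Tpsab1 and carboxypeptidase Cpa3.

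Most of these chymases lie in 1 cluster on chromosome 14 (chr14:55941451-56262260, mm10), where 9 genes, Cma1, Cma2, Mcpt1, Mcpt9, Mcpt2, Mcpt4, Mcpt8, Ctsg and Gzmb, span 320.81 kb. The tryptases Tpsab1 and Tpsb2 lie on chromosome 17 with Tpsg1 and Prss34 (chr17:25298394-25374442), and Cpa3 lies on chromosome 3 (chr3:20215620-20242181). The promoters of the mucosal chymase Mcpt1, the connective tissue chymases Mcpt4 and Cma1, and Cpa3 are shown because these genes define the cells, and because GATA2, a transcription factor of mast cells, belongs to a family that binds the letters GATAA. Each line gives the 250 bases before the RefSeq transcription start (build GRCm38.p6), 5′ to 3′ on the gene's strand, with GATAA or its reverse TTATC in capitals. The windows are chr14:56017714-56017963 (plus strand) for Mcpt1, chr14:56062311-56062560 (minus) for Mcpt4, chr14:55944676-55944925 (minus) for Cma1 and chr3:20242182-20242431 (minus) for Cpa3.
Mcpt1: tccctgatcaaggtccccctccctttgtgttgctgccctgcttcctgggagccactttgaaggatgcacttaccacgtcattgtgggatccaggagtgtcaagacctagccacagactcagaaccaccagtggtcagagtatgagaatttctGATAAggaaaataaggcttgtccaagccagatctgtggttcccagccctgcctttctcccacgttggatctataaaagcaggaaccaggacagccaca
Mcpt4: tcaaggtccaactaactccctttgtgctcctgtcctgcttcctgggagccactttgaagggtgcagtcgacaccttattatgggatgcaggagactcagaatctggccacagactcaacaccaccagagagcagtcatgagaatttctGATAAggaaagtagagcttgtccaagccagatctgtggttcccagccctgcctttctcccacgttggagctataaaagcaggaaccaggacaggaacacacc
Cma1: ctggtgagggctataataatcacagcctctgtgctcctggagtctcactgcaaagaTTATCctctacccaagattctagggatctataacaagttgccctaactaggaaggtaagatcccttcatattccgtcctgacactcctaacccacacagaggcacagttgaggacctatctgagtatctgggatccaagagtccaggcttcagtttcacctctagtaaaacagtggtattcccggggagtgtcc
Cpa3: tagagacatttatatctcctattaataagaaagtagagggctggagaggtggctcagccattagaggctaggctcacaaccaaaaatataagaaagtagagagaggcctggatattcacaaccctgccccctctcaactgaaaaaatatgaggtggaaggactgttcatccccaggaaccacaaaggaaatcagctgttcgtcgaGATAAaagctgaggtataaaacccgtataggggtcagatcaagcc
Each of the 4 windows held 1 match, 98 bases before the start in Mcpt1, 102 in Mcpt4, 194 in Cma1 and 45 in Cpa3. Of all 32841 windows of 250 bases in the RefSeq table, 7415 (22.6%) held a match on either strand, and the Mcpt8, Mcpt9, Ctsg and Gzmb windows held none. Prss34, with only 3 UMIs in these cells, also held 1 match, 30 bases before its start, as did 1 of 2 windows of Tpsg1, at 92 bases. The Mcpt1 and Mcpt4 windows were 86.4% identical over 242 aligned bases, where the first gene marks mucosal and the second connective tissue mast cells. A match of these letters is a description, not a binding site. Mcpt2, Tpsb2, Tpsab1 and Cma2 were not looked at here.

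The deposited WT matrix held 164574326 UMIs and the KO matrix 156641780. Mast cells carried 745150 of the WT and 325737 of the KO UMIs, with a median of 3792 (1017 to 40833) and 4148 (1046 to 33362) UMIs per cell, 1454 and 1698 genes, and 3.02% and 3.20% mitochondrial UMIs. No barcode sequence was a mast cell in both libraries. Gsk3b, the targeted gene, had 26081 UMIs in 4055 WT epithelial barcodes and 22295 in 4030 KO epithelial barcodes (262 and 235 UMIs per 1000000, CPM), and 93 and 42 UMIs in mast cells (125 and 129 CPM). Because the deleted part is not known here, these counts check neither the deletion nor the labels, and WT and KO below mean the libraries so labelled. Markers of another cell type, at or above the 5th percentile of that type and thus down to its low end, were found in 11 WT and 7 KO mast cells. Epithelial ones were in 5 and 1, neutrophil ones in 4 and 2, macrophage ones in 2 and 3 and T cell ones in 1 and 1. The doublet caller Scrublet marked 9 WT and 6 KO mast cells. The 18 barcodes with other markers carried 25.6% of WT and 16.96% of KO mast cell UMIs, so results that rest on them are given with and without them.

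The 6 proteases that chose the cells made up a median of 12.6% of a WT mast cell's UMIs (2.26% to 37.0%) and 10.4% in the KO library (2.72% to 22.6%). The median of all other barcodes was 0.0123% and 0%, and droplets with no cell carried 0.217% and 0.0360%. Only 4 WT cells (2.26% to 2.75%) and 1 KO cell (2.72%) lay just above the limit, between 2% and 3%. Just below it, between 1% and 2%, lay 12 WT barcodes (1.07% to 1.63%) and 6 KO barcodes (1.10% to 1.91%), of which 8 and 2 carried markers of another cell type. Of these barcodes below the limit, 10 WT and 2 KO ones also had at least 3 of 6 mast cell markers that the rule did not use, and 10 and 3 had Kit.

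The label mast cell was checked with genes that the rule did not use. Of Kit, Ms4a2 and Fcer1a (the growth factor receptor and the β and α chains of FcεRI), Gata2, the histidine decarboxylase Hdc that makes histamine, and the IL-33 receptor Il1rl1, at least 3 were detected in 107 of 124 WT and 41 of 47 KO mast cells. The same held for 33 of 4055 WT and 16 of 4030 KO epithelial barcodes, which were deeper (median 20938 and 20186 UMIs). In 1 cell of each library none of the 6 was read.

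Fcer1a (chr1:173221284-173227214) was the most frequent of these, with UMIs in 94.4% of WT and 91.5% of KO mast cells, and in 68.5% and 55.3% once each cell was thinned to 1000 UMIs, against 0.247% and 0.0496% of thinned epithelial barcodes. Kit (chr5:75574916-75656722) was read in 77.4% and 83.0% of mast cells (37.9% and 44.7% thinned), against 0.838% and 0.720% of thinned epithelial barcodes. Summed over mast cells, Fcer1a stood at 1094 CPM (WT) and 875 CPM (KO), against 1.60 and 0.531 CPM in all other barcodes. Hdc, which neutrophils can also make, stood out least, at 286 and 233 CPM against 106 and 134 CPM in other barcodes. The marker list outside the rule had 14 genes, 12 with 50 or more UMIs, and 11 of these were more than 2-fold higher in mast cells than in other barcodes in both libraries, where 11.5% of all 3028 genes with 50 or more UMIs were. Of 10 epithelial marker genes, 9 had 50 or more UMIs, and all 9 were more than 2-fold lower in mast cells in both libraries, where 8.62% of genes were.

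Other cell types that share single markers with mast cells were also checked. Interstitial cells of Cajal, the pacemaker cells of the gut wall, also make Kit, but their channel gene Ano1 had 3 UMIs in WT and 2 in KO mast cells. Basophils share Fcer1a, Gata2, Il4, Cd200r3 and Cyp11a1 with these cells, and their defining proteases Mcpt8 and Prss34 are given with the proteases below. Of 9 basophil markers 7 had 50 or more UMIs, Mcpt8 and Ifitm1 among them. All 7 were more than 2-fold above other barcodes in both libraries, where 11.5% of all genes were, so this list does not separate the 2 cell types. The 7 eosinophil markers summed to 12 and 5 UMIs, the 9 dendritic cell markers to 12 and 0, the 7 B cell markers to 4 and 4, and the 9 T cell markers to 55 and 11. No gene of these 4 lists reached 50 UMIs.

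**Figure D1:**
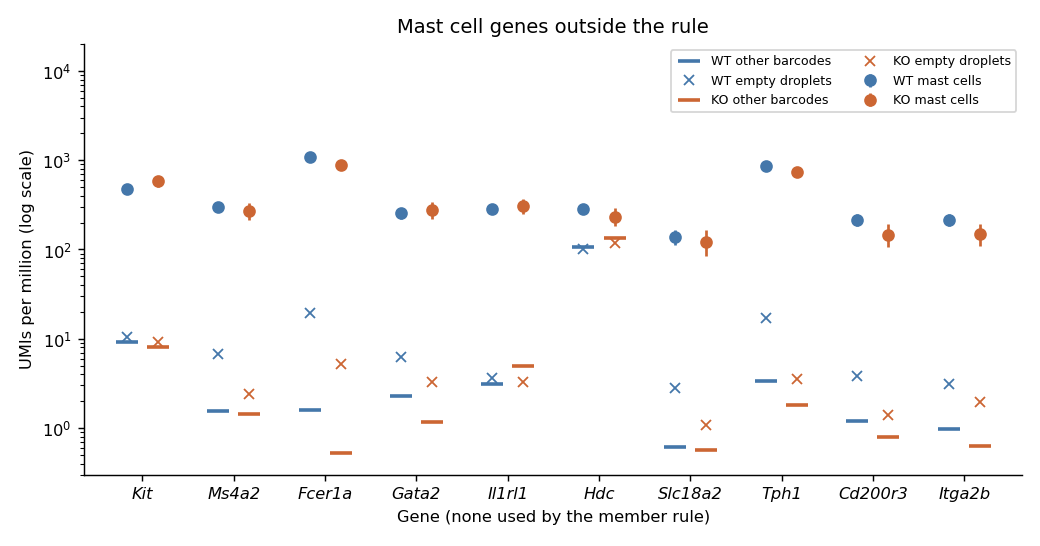
CPM (log axis) of 10 mast cell genes that did not choose the cells, in mast cells (points, bars are 95% Poisson intervals), all other cell barcodes (dashes) and empty droplets (crosses), for the WT (blue) and KO (orange) library. All 10 genes stand above the other barcodes in both libraries, Fcer1a by the widest margin and Hdc by the narrowest.

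Beyond the usual markers, the genes outside the rule with the largest excess over other barcodes included several that are no granule proteins. Cyp11a1, the enzyme that starts steroid synthesis from cholesterol, stood at 262 and 264 CPM in WT and KO mast cells against 1.56 and 0.895 CPM in other barcodes. Clnk, an adaptor of immune receptor signalling, stood at 370 and 353 CPM against 2.53 and 2.10 CPM. The same 25 leading genes held the serotonin enzyme Tph1, the amine transporter Slc18a2, the integrin Itga2b, the heparan sulfate enzyme Hs6st2, the growth factor Angpt1, the cytokine Il4 and the chemokine Ccl1, along with Rab38, Atp8b5, Zmat4, Rgs18, Zfp536, Slc24a3 and Padi2.

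Mast cells were a smaller share of the KO library. They made up 1.17% of WT cells (124 of 10638, interval 0.970% to 1.39%) and 0.410% of KO cells (47 of 11466, 0.301% to 0.545%), a 2.84-fold difference (log2 ratio of KO over WT -1.51, interval -2.02 to -1.01). Among barcodes with a UMI of the leukocyte gene Ptprc the shares were 1.38% (79 of 5743) and 0.552% (32 of 5799), a 2.49-fold difference. Barcodes picked without any protease, by 3 of the 6 markers above, numbered 171 and 74 (2.49-fold). Of these only 107 and 41 were mast cells by the protease rule, and 33 and 16 were epithelial barcodes. The KO share was the lower one under all 10 other definitions tried, by 2.27-fold to 3.18-fold. With 1 library per genotype this difference has no replicate check, and how much of each tumour was sampled is not known.

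By their summed proteases, the chosen cells of both libraries were mostly of the mucosal kind. Mcpt1 and Mcpt2 themselves helped choose the cells, so this describes only the cells that passed the rule. Because each RNA is tagged once at its 3′ end, CPM does not grow with transcript length. Mcpt1 gave 70677 CPM in WT and 59376 CPM in KO mast cells, and Mcpt2 53703 and 47652 CPM, each more than Cpa3 and the connective tissue proteases together. Of the UMIs of Mcpt1, Mcpt2, Cpa3, Mcpt4, Cma1, Tpsb2 and Tpsab1, the 2 mucosal chymases held 91.9% in WT and 92.8% in KO. Cpa3, named above for connective tissue mast cells, was read in all 171 cells, at 4519 and 3564 CPM. It did not separate the cells here and was counted with neither kind in the shares of this text.

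The connective tissue proteases were each far lower, yet were read in many cells. Mcpt4 had 2171 CPM in WT and 2450 CPM in KO, with UMIs in 80 of 124 and 28 of 47 cells. Tpsb2 had 2279 and 1010 CPM in 78 and 23 cells, and Cma1 1456 and 989 CPM in 76 and 25 cells. Tpsab1, a tryptase beside Tpsb2 on the chromosome, had 476 and 270 CPM in 56 and 17 cells. These 4 together held 4.72% of the protease UMIs in WT (4.59% to 4.85%) and 4.09% in KO (3.89% to 4.30%). Averaged over cells instead of summed, the order of the libraries turned, to 6.50% in WT and 7.94% in KO. It also turned when doublets called by Scrublet were removed (4.77% and 5.52%), so no difference in this share is read from the sums.

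Between the libraries, Tpsb2 was the protease with the clearest lower level in KO, a log2 ratio of -1.17 (-1.35 to -1.0). It was -1.27 without the cell with most Tpsb2 UMIs in each library, and -1.48 without the 18 barcodes with other markers, while across all settings it ranged from -1.48 to -0.51. Tpsab1 (-0.82, -1.17 to -0.48) and Cma1 (-0.56) were lower too, whereas Mcpt4 was not (0.17). As a mean over cells, in place of a sum, Tpsab1 was -0.061 and Cma1 -0.15. Mcpt1 (-0.25) and Mcpt2 (-0.17) had smaller differences in their sums. All of these proteases but Tpsab1 helped choose the cells, so their ratios only describe the chosen cells.

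**Figure D2:**
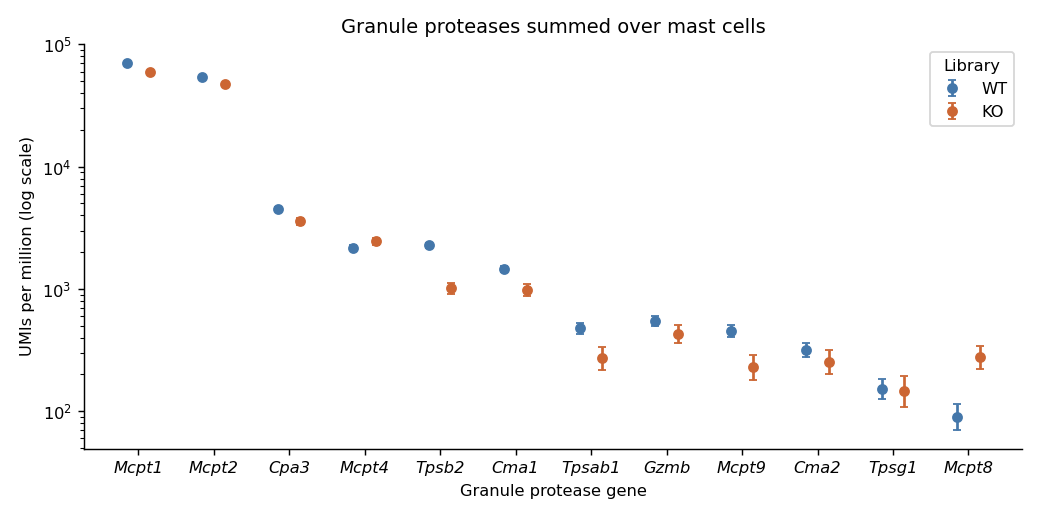
CPM (log axis) of 12 granule proteases summed over 124 WT (blue) and 47 KO (orange) mast cells, with 95% Poisson intervals for counting error. Mcpt1 and Mcpt2 stand above all others in both libraries, and in these sums Tpsb2, Tpsab1 and Mcpt9 are lower and Mcpt8 higher in KO.

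Some lesser proteases were read in a minority of cells. Mcpt8 (chr14:56082166-56085273), a serine protease best known from basophils, had 67 UMIs in 16 WT cells and 90 in 8 KO cells (89.9 and 276 CPM, log2 ratio 1.62, 1.15 to 2.10). Single cells held up to 13 (WT) and 35 (KO) of these, and the ratio was 1.28 without them and 1.5 without the 18 barcodes. Prss34, another basophil protease, had 3 UMIs in WT and 0 in KO mast cells, and the other barcodes held Mcpt8 at only 0.411 and 0.517 CPM. Gzmb, a granzyme of cytotoxic lymphocytes, was read in 12 of the 16 Mcpt8-positive WT cells (75%) against 24.1% of the others, and in 5 of 8 KO cells (62.5%) against 15.4%. The Mcpt8-positive cells were deeper, with a median of 9163 and 15048.5 UMIs against 3433.5 and 3834, and the part of depth in the overlap was not tested.

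Mcpt9, a chymase of the same cluster, had 339 UMIs in 48 WT cells and 75 in 10 KO cells (455 and 230 CPM, log2 ratio -0.98, -1.36 to -0.62; -1.52 without the 18 barcodes). Cma2 had 238 and 83 UMIs, of which 1 KO cell held 68. Transcripts of Mcpt9 and Cma2 are 98.1% identical over 809 aligned bases with a shared run of 196, so some of their reads may not be told apart and both values are uncertain. Counts did differ in single cells, with 43 Cma2 and 0 Mcpt9 UMIs in 1 WT cell and 25 Mcpt9 and 0 Cma2 UMIs in another. Mcpt1 and Mcpt2 transcripts are 82.2% identical, with no shared run over 49 bases.

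Most cells held both kinds of protease. UMIs of both the mucosal pair and the connective tissue group were read in 105 of 124 WT and 38 of 47 KO mast cells. Across cells of a library, as Spearman correlations of shares of UMIs, Mcpt1 went with Mcpt2 (0.603 over 124 WT cells and 0.697 over 47 KO cells), and Tpsb2 with Tpsab1 (0.605 and 0.737). Cma1 went with Tpsb2 (0.483 and 0.620), while Mcpt1 and Tpsb2 were weakly opposed (-0.162 and -0.363). The cells of a library share its preparation, and the connective share was lower in deeper cells (-0.232 and -0.334 with UMIs), so these values describe the cells only.

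Cells were therefore set into ranges of the share that Mcpt4, Cma1, Tpsb2 and Tpsab1 took of a cell's UMIs, below 0.1% (low), 0.1% to 0.5% (middle) and 0.5% or more (high). These ranges, set with the data in view, are cuts of a continuous score and not types. The low range held 33 of 124 WT cells (26.6%, 19.1% to 35.3%) and 17 of 47 KO cells (36.2%, 22.7% to 51.5%). The high range held 67 WT cells (54.0%, 44.9% to 63.0%) and 17 KO cells (36.2%, 22.7% to 51.5%), so that the intervals of the libraries overlapped. Near a cut, between 0.8 times its value and its value divided by 0.8, lay 2 low, 6 middle and 6 high cells in WT, and 1, 3 and 4 in KO. Median shares of epithelial markers were close in low and high cells (0.146% and 0.163% of UMIs in WT, 0.163% and 0.152% in KO), and those of neutrophil markers were lower in high cells (0.112% and 0.0902% in WT, 0.0667% and 0.0484% in KO).

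A further 4 cells, 2 in each library, carried the connective tissue proteases with almost no mucosal chymase. Each had 0 or 1 UMI of Mcpt1 and 0 to 6 of Mcpt2, against 17 to 58 of Mcpt4, 23 to 55 of Cma1 and 28 to 39 of Tpsb2. Mrgprb1, a receptor of the Mas-related family that includes the mast cell receptor Mrgprb2, was read in all 4, while Itgae, Gzmb, Mcpt8, Mcpt9 and Cma2 were at 0 in all 4. Markers of another cell type were present in 2 of them. In high-range cells the connective tissue proteases had a median share of 1.29% (WT) and 1.22% (KO), below the 2% limit of the rule. Cells with such a share and no mucosal chymase could have been missed, so how common they are is not known here.

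**Figure D3:**
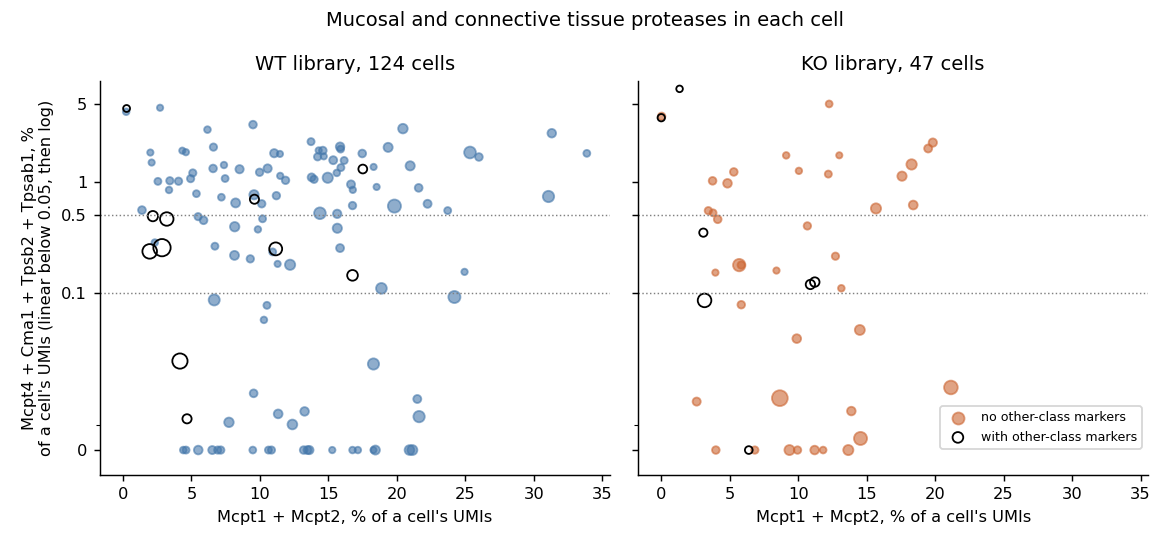
Each circle is 1 mast cell of the WT (left) or KO (right) library, placed by the share of its UMIs from Mcpt1 and Mcpt2 (x axis, %) and from Mcpt4, Cma1, Tpsb2 and Tpsab1 (y axis, %, linear below 0.05 and logarithmic above); area grows with UMIs, open circles carry markers of another cell type and dotted lines mark 0.1% and 0.5%. Most cells hold both kinds of protease, 19 WT and 8 KO cells hold no connective tissue protease UMI, and 2 cells in each library sit at the left edge with almost no Mcpt1 or Mcpt2.

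Cells with little connective tissue protease differed from cells with much in genes beyond the proteases that set the ranges. The 18 barcodes with other markers were left out here. With them, the epithelial gene Epcam had a log2 ratio of low over high cells of 1.11 in WT and 1.77 in KO, and without them 0.24 and 1.96, so epithelial RNA still moved with the low range in KO. Of 1904 genes with 50 or more UMIs, 24 (1.26%) were more than 2-fold higher in the low range in both libraries and 19 (0.998%) more than 2-fold lower, the latter including the 4 proteases of the ranges. With the 18 barcodes these were 49 (2.22%) and 20 (0.905%) of 2209 genes. Itgae (chr11:73090583-73147446), the αE integrin that holds cells at the epithelium by binding E-cadherin, was read in 24 of 33 low and 22 of 67 high WT cells, and in 14 of 17 low and 3 of 17 high KO cells. These counts are over all cells of a range, and without the 18 barcodes its log2 ratio of low over high was 1.22 (0.66 to 1.80) in WT and 1.09 (-0.06 to 2.41) in KO.

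Also higher in the low range were Mcpt9 (log2 ratio 2.01 in WT and 1.5 in KO), the LIM protein Pdlim5 (2.18 and 2.63) and the GTPase-activating protein Arhgap15 (2.53 and 2.08). The hyaluronan receptor Cd44 (1.05 and 1.39) and the immediate early factors Nr4a1 (1.21 and 1.93) and Egr1 (1.20 and 1.08) were among them too. Pdlim5 rested on 23 low and 8 high UMIs in WT and 36 and 3 in KO. In KO, Mcpt9 had 44 UMIs in 4 of 17 low cells and 8 UMIs in 1 of 17 high cells. Its KO level was highest in the middle range (384 CPM against 246 in low cells), where 1 cell held 17 of 23 UMIs. Its reads may also be mixed with those of Cma2, as said above. Low KO cells were deeper (median 6493 UMIs against 4097 in high cells), as were low WT cells (4844 against 3605), and the part of depth was not tested.

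Higher in the high range were the monocyte-attracting chemokines Ccl2 (-1.27 in WT and -1.87 in KO) and Ccl7 (-5.41 and -1.68). So were the CD200 receptor family member Cd200r3 (-1.91 and -1.70), the intermediate filament Vim (-1.33 and -1.15) and the carboxypeptidase inhibitor Lxn (-1.34 and -2.70). Cma2 was higher there too (-1.65 and -5.50), with 68 of its 70 high-range KO UMIs in 1 cell. The KO ratio of Lxn rested on 3 low and 10 high UMIs (interval -5.2 to -0.74). Ccl7 had 1 UMI in low WT cells and 67 in high WT cells, 37 of them in 1 cell. In KO all 33 high-range UMIs were in 1 of 17 cells, while low cells had 20 UMIs in 2 of 17 cells. The KO ratio of Ccl7 thus rested on 1 high-range cell. Over all cells, Ccl2 was read in 5 of 33 low and 25 of 67 high WT cells, and in 6 of 17 low and 10 of 17 high KO cells. Mcpt1 (0.00 and -0.16) and Kit (0.26 and 0.10) lay within 2-fold in both libraries, as the plot of low against high cells shows.

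**Figure D4:**
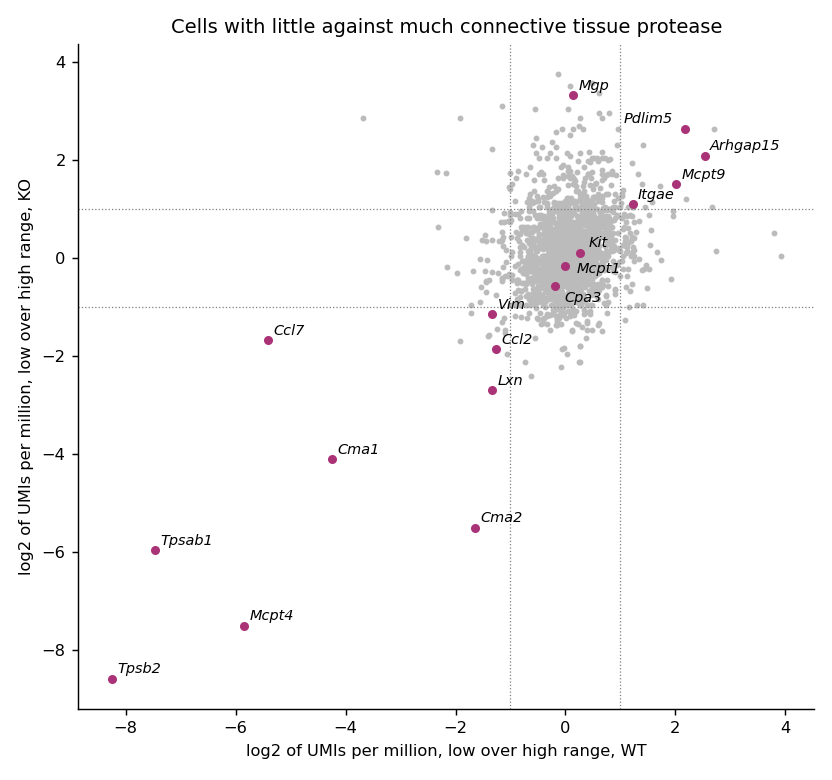
Log2 ratio of CPM in cells with little over cells with much connective tissue protease, in WT (x axis) and KO (y axis), for 1904 genes with 50 or more UMIs after barcodes with markers of another cell type were left out; dotted lines mark 2-fold. Tpsb2, Mcpt4, Cma1 and Tpsab1 set the ranges and lie at the lower left by construction, with Ccl2, Ccl7 and Vim on the same side in both libraries and Arhgap15, Mcpt9 and Itgae on the other. In KO, Ccl7 lies at the lower left through 1 high-range cell, and Mcpt9 rests on 4 low-range cells and 1 high-range cell.

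Mrgprb1 and Mrgprb2, picked out after their values were seen, had no UMI in the 33 WT and 17 KO low-range cells. Mrgprb1 was read in 7 WT and 6 KO cells, 3 and 4 of them in the high range, and Mrgprb2, the receptor for basic peptides and many drugs, in 10 WT and 4 KO cells. Of the 13 cells with Mrgprb1, 12 also had Ccl2, namely 6 of 7 in WT, against 33 of 117 cells without Mrgprb1, and 6 of 6 in KO, against 17 of 41. The Mrgprb1-positive cells were shallower (median 2294 and 2815.5 UMIs against 3942 and 5104).

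Among receptors, the IgE and KIT group led. The signalling γ chain Fcer1g had 1741 CPM in WT and 1685 CPM in KO mast cells, and Ms4a2 had 299 and 267 CPM. Kit stood at 474 and 577 CPM, with a log2 ratio of 0.28 (0.02 to 0.54) that was 0.12 (-0.15 to 0.39) without the 18 barcodes. None of the 4 members with 50 or more UMIs of this list of 5 differed 2-fold between the libraries, where 127 of 3028 genes (4.19%) did, 63 higher (2.08%) and 64 lower (2.11%) in KO, with a median log2 ratio over all genes of 0.04.

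Cytokine receptors were headed by Il1rl1, the receptor for the epithelial alarmin IL-33, at 286 and 304 CPM. It was read in 62.9% of WT and 53.2% of KO cells, or 24.2% and 31.9% after thinning, so the order of the libraries turned with depth. Csf2rb, the common β chain for IL-3, IL-5 and GM-CSF, stood at 204 and 215 CPM, and the IL-3-specific Csf2rb2 at 187 and 135 CPM. Crlf2, the receptor for the alarmin TSLP, stood at 164 and 117 CPM, Tgfbr1, a receptor for TGF-β, at 138 and 218 CPM, and Il2rg, the common γ chain, at 125 and 111 CPM. Of the 21 genes of the list 9 had 50 or more UMIs, 6 of these were more than 2-fold above other barcodes in both libraries (11.5% of all genes were), and none differed 2-fold between the libraries (median -0.18).

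A list of inhibitory receptors and their relatives had 4 of 15 genes with 50 or more UMIs and no member 2-fold apart. It held Cd200r3 (216 CPM in WT and 144 CPM in KO), Lilrb4a (188 and 206 CPM) and Cd200r4 (87.2 and 92.1 CPM). G protein coupled and purinergic receptors were sparse, with 4 of 34 genes at that count. These were the ATP receptors P2rx4 (95.3 and 86.0 CPM) and P2rx7 (91.3 and 111 CPM), the UDP-glucose receptor P2ry14 (64.4 and 39.9 CPM) and the fractalkine receptor Cx3cr1 (72.5 and 67.5 CPM). The histamine receptors Hrh1, Hrh2 and Hrh4 had 1, 3 and 3 UMIs in WT and none in KO, which allows up to 3 counts in 325737 UMIs.

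Adhesion genes of intraepithelial cells were present, with Itgae at 192 CPM in WT and 172 CPM in KO and its partner Itgb7 at 142 and 200 CPM (log2 ratio 0.49, 0.02 to 0.95; 0.25 without the 18 barcodes). The granule membrane tetraspanin Cd63 stood at 4042 and 3168 CPM, against 446 and 503 CPM in other barcodes. The platelet integrin chain Itga2b stood at 216 and 147 CPM against 0.980 and 0.633 CPM. Of 16 adhesion genes 8 had 50 or more UMIs, and none of them differed 2-fold between the libraries, where 4.19% of all genes did. Without the 18 barcodes 2 of 7 were more than 2-fold higher in KO, where 55 of 2283 genes (2.41%) were. These were the tetraspanin Cd9 (0.42 with the 18 barcodes, 1.38 without) and E-cadherin, Cdh1 (-0.047 and 1.10), both also made by epithelium.

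Of the type 2 cytokines, only Il4 (chr11:53602982-53618669) reached 50 UMIs. It had 73 UMIs in WT and 31 in KO mast cells (98.0 and 95.2 CPM) against 0.404 and 0.313 CPM in other barcodes, and was read in 30.6% and 42.6% of cells, or 9.68% and 8.51% after thinning. A single WT cell held 24 of the 73. Il13, which drives mucus and smooth muscle responses, had 11 and 4 UMIs, and Il3, Il5, Il9, Il31 and Csf2 had none in either library, which allows up to 3 counts each in 745150 and 325737 UMIs.

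Il6, an inflammatory cytokine, stood at 137 CPM in WT and 123 CPM in KO mast cells against 6.59 and 8.50 CPM in other barcodes, with UMIs in 40.3% and 25.5% of cells (10.5% and 10.6% thinned). Tnf (132 and 178 CPM) was near the level of other barcodes (188 and 168 CPM), Il1b (376 and 322 CPM) was below it (1156 and 1019.5 CPM), and the part of RNA from other cells in both was not tested. Osm, a cytokine of the IL-6 family, had 66 and 10 UMIs (log2 ratio -1.53), with 29 in 1 WT cell and a ratio of -0.84 (-2.43 to 0.51) without the 18 barcodes. Il17a had 46 UMIs in WT, 45 of them in 1 cell that also carried T cell markers, and 0 in KO.

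Angpt1, the vessel-stabilising ligand of the receptor TIE2, was far above other barcodes, and its sum was higher in KO. It had 58 UMIs in WT and 66 in KO mast cells, or 77.8 CPM (59.1 to 101) and 203 CPM (157 to 258), against 0.226 and 0.764 CPM in other barcodes. The log2 ratio was 1.38 (0.85 to 1.91), 1.12 without the top cell of each library, 1.14 without the 18 barcodes and 0.73 as a mean over cells. In KO, 3 cells held 17, 11 and 10 of the 66 UMIs, against at most 4 in any WT cell, and UMIs were read in 29.8% of WT and 34.0% of KO cells. Tgfb1 (145 and 153 CPM) and the lymphatic growth factor Vegfc (76.5 and 107 CPM) were other growth factors of these cells.

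The chemokine list had 8 of 15 genes with 50 or more UMIs, 2 of them more than 2-fold higher in KO and none lower, where 2.08% and 2.11% of all genes were. Both, Ccl7 and Cxcl1, rested on few cells. Ccl7 had 108 and 120 UMIs with 37 and 66 in 1 cell each, and its log2 ratio of 1.35 was 0.47 (-0.06 to 0.98) without the 18 barcodes. Cxcl1 had 39 and 42 UMIs with 34 of the KO ones in 1 cell. Cxcl2, a neutrophil attractant, stood at 1263 and 2321 CPM (log2 ratio 0.88, and 1.13, 0.88 to 1.38, without the 18 barcodes), below its level in other barcodes (4660 and 5205.5 CPM). Ccl2 (345 and 359 CPM against 18.3 and 20.4 CPM) and Ccl1, a T cell attractant (138 and 79.8 CPM against 1.03 and 0.356 CPM), did stand above other barcodes.

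Genes of amine and lipid mediators were read in both libraries. Tph1 (chr7:46644641-46672537), which starts serotonin synthesis outside the brain, stood at 870 CPM in WT and 743 CPM in KO mast cells against 3.33 and 1.82 CPM in other barcodes, and was read in 70.2% and 72.3% of cells (44.4% and 42.6% thinned). Hdc stood at 286 and 233 CPM, and Slc18a2, which loads both amines into granules, at 137 and 120 CPM. Of the lipid mediator genes, the leukotriene genes Alox5ap (953 and 746 CPM) and Alox5 (172 and 154 CPM) and the prostaglandin D synthase Hpgds (145 and 236 CPM, log2 ratio 0.71, 0.26 to 1.14) were well read, and Ltc4s had 35 and 11 UMIs. None of the 4 amine and 4 eicosanoid genes with 50 or more UMIs differed 2-fold between the libraries.

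Proteoglycans that bind the proteases in granules were represented by the core protein Srgn (3123 and 3420 CPM) and by the chain-building enzymes Hs3st1 (385 and 258 CPM), Ext1 (361 and 325 CPM) and Hs6st2 (294 and 292 CPM). Hs6st2 was at 1.38 and 0.553 CPM in other barcodes, whereas Ext1 stood at 508 CPM in WT epithelial barcodes, above its mast cell level. Of 19 genes 8 had 50 or more UMIs. Of these, 2 were more than 2-fold above other barcodes in both libraries (11.5% of all genes were), and none differed 2-fold between the libraries (median -0.13).

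Of 31 transcription factors 15 had 50 or more UMIs, and none differed 2-fold between the libraries (median 0.11). Gata2 stood at 254 and 273 CPM, Mitf, which drives KIT and protease genes, at 152 and 132 CPM, and the myeloid and lymphoid factors Zeb2, Runx3, Runx1 and Ikzf1 at 467 and 599, 322 and 233, 279 and 292, and 227 and 264 CPM. Ahr, a sensor of dietary and microbial ligands, stood at 256 and 246 CPM. Spi1, a myeloid factor, had 87 and 21 UMIs (log2 ratio -0.86, -1.62 to -0.16), and passed 2-fold without the 18 barcodes (-1.45, -2.43 to -0.59).

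Downstream of the IgE receptor, 19 of 28 signalling genes had 50 or more UMIs, 12 of them were more than 2-fold above other barcodes in both libraries (11.5% of all genes were), and none differed 2-fold between the libraries (median 0.04). The kinases Prkcb (647 and 743 CPM) and Lyn (416 and 365 CPM) and the adaptor Lat2 (287 and 270 CPM) led. Among 23 exocytosis genes, Rab27b, which moves granules to the membrane, stood at 301 and 368 CPM, and none of the 7 with 50 or more UMIs differed 2-fold.

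Klf2, a zinc finger factor of cell quiescence (chr8:72319033-72321656), was higher in KO. It had 517 UMIs in WT and 468 in KO mast cells, or 694 CPM (635 to 756) and 1437 CPM (1309.5 to 1573), while other barcodes stood at 487 and 512 CPM. Its log2 ratio was 1.05 (0.87 to 1.23), and 1.00 both without the top cells and without the 18 barcodes. It was 1 of 21 immediate early genes with 50 or more UMIs in a list of 25, whose median was 0.07. The list held no other member 2-fold apart, where 4.19% of all genes were. Without the 18 barcodes 2 members were higher, where 2.41% of genes were. The AP-1 genes Jun (5466 and 4138 CPM) and Fos (3673 and 3328 CPM) were high in both.

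Lower in KO outside the genes that chose the cells were Ctla2a, an inhibitor of cathepsin proteases (1338 and 583 CPM, log2 ratio -1.20, -1.43 to -0.97; -1.40 without the 18 barcodes), and Plac8, a small cysteine-rich protein (905 and 381 CPM, -1.25, -1.54 to -0.97; -1.26). Plac8 was lower in other KO barcodes as well (611 and 421 CPM), and so was Ifitm1, an interferon-induced membrane protein (4253 and 2069 CPM in mast cells, -1.04; 844 and 632 CPM in other barcodes). Ctla2a stood at 33.5 and 29.4 CPM in other barcodes and at 56.7 and 33.3 CPM in droplets with no cell. Pecam1, an adhesion molecule of endothelium and leukocytes, had 92 and 14 UMIs (-1.52, -2.45 to -0.70; -1.69 without the 18 barcodes).

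Cell cycle genes rested on few UMIs. Of 24 genes 9 had 50 or more UMIs, with a median log2 ratio of 0.33, and 2 were more than 2-fold higher and none lower, where 2.08% and 2.11% of all genes were. These were the topoisomerase Top2a (40 and 41 UMIs, log2 ratio 1.23, 0.56 to 1.90; 1.24 without the 18 barcodes) and the replication helicase subunit Mcm6 (38 and 34 UMIs, 1.03, 0.32 to 1.74; 1.22). Summed over the list, mast cells stood at 1115 CPM in WT and 1480 CPM in KO, and other barcodes at 1047 and 981 CPM. By range of connective tissue protease, the low, middle and high cells had 866, 1274 and 1194 CPM of these genes in WT, and 1771, 1451 and 967 CPM in KO, so the order of the ranges differed between the libraries.

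Genes of survival (7 of 13 with 50 or more UMIs, median 0.27), MHC class I (5 of 11, 0.43), the TGF-β response (7 of 10, 0.04), glycolysis (12 of 14, 0.03) and GSK3 and β-catenin (3 of 10, 0.09) had no member 2-fold apart. Of all 3028 genes with 50 or more UMIs, 4.19% were, 2.08% higher and 2.11% lower in KO. The lists of this paragraph are too short to set 0 or 1 such gene apart from that share. Interferon response genes were sparsely read, with 1 of 14 type I genes (Isg15, 48 and 24 UMIs) and 1 of 14 interferon-γ genes (Irf1, 51 and 31 UMIs) at that count. Of the checkpoint ligands 7 of 12 reached it and 1 was higher, the galectin Lgals1 (67 and 72 UMIs, 1.30, and 0.92 without the 18 barcodes), while Cd274, which encodes PD-L1, stood at 117 and 132 CPM. Of 14 matrix genes 3 reached it and 1 was lower, the metalloprotease inhibitor Timp3 (64 and 11 UMIs, -1.35, and -0.34 without the 18 barcodes).

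The 12 leading genes higher in KO included the macrophage and antigen presentation genes Lyz2, Ctss, C1qb, C1qc, Cd74, H2-Aa and H2-Ab1. A single barcode held 221 of 254 KO UMIs of the lysozyme Lyz2, 157 of 188 of the class II chaperone Cd74, 57 of 59 of the cathepsin Ctss and 56 of 61 of the complement gene C1qb. All 4 MHC class II genes with 50 or more UMIs were more than 2-fold higher in KO (list median 1.47), where 2.08% of all genes were. But the median was -0.72 over the 2 that still had 50 without the 18 barcodes, and -0.77 without that barcode alone. The macrophage marker list turned in the same way, from 1.93 over 5 genes to -0.53 over 2. The goblet cell gene Zg16, highest of all (9.39 and 147 CPM, log2 ratio 3.97), stood at 69.8 and 1169.5 CPM in droplets with no cell.

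Among the 12 leading genes lower in KO, Hspb1 (183 and 24.6 CPM in mast cells), the growth factor Ptn, the iron-binding Lcn2 and the metalloprotease Mmp7 were lower in other KO barcodes as well (Hspb1 599 and 179 CPM there). The heat shock list had 11 of 12 genes with 50 or more UMIs, 4 of them more than 2-fold lower in KO and none higher, with a median of -0.60. Without the 18 barcodes 4 were again lower and the median was -0.56, where 43 of 2283 genes (1.88%) were lower and 55 (2.41%) higher. Hspa1b, an inducible chaperone, had 424 and 190 CPM in mast cells and 424 and 161 CPM in other barcodes. Id1, a growth-linked inhibitor of transcription factors, had 154 of its 284 WT UMIs in 1 cell, and its ratio of -1.79 was 0.26 without the 18 barcodes. S100a6 went from -1.23 to -0.00 in the same way. The part of RNA from other cells in the heat shock values was not tested.

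**Figure D5:**
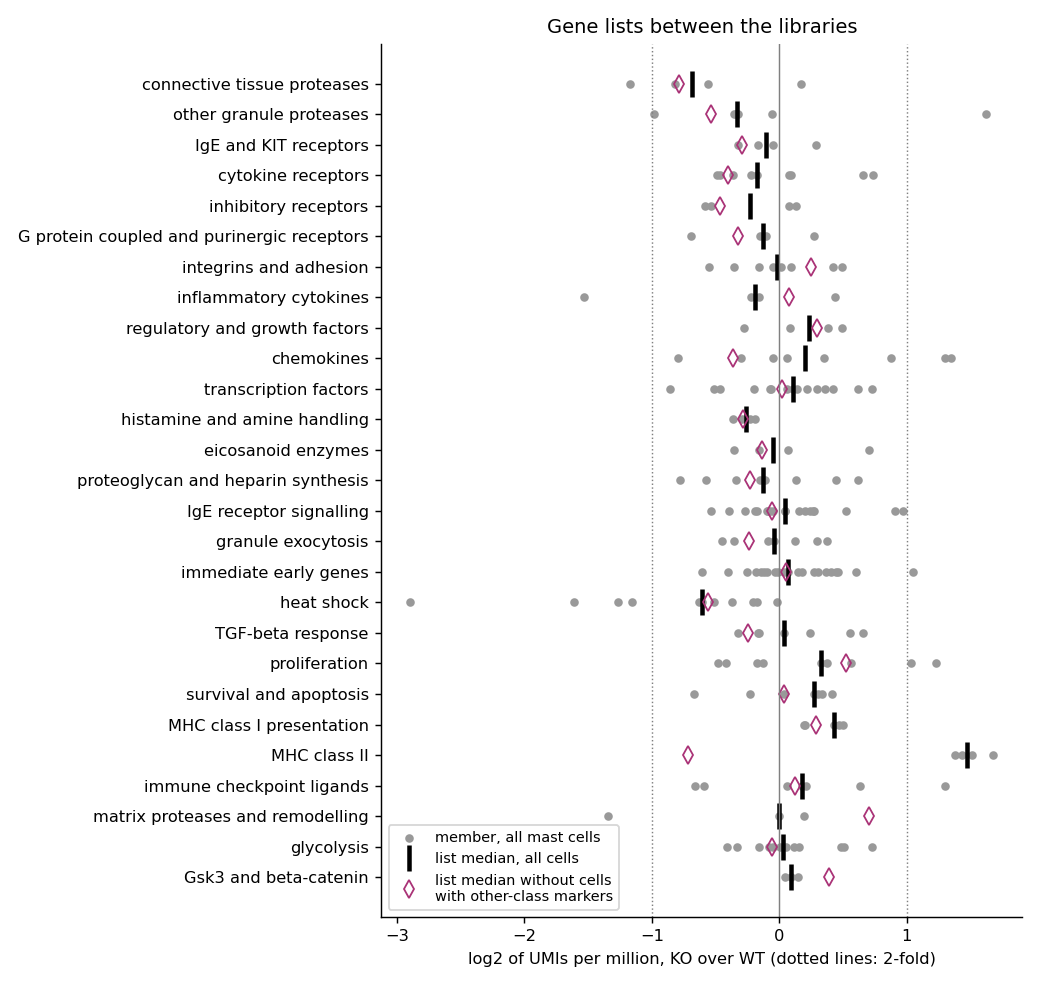
Log2 ratio of CPM, KO over WT, for the genes with 50 or more UMIs (grey points) of each gene list, with the list's median over all mast cells (black bars) and without the 18 barcodes that carry markers of another cell type (open diamonds); dotted lines mark 2-fold. Most medians lie within 0.5 of 0, the heat shock median lies below it in both settings, and the MHC class II median turns from 1.47 to -0.72.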

How the data were processed

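Droplet single-cell RNA-seq of tumours from 2 mouse genotypes was analysed, 1 library each. The deposited matrices hold raw UMI counts per gene and barcode, empty droplets included, made with Cell Ranger 4 per the file headers. The submitters' processing notes name mm10 and Seurat; which annotation they used is not stated in these sources. Coordinates were taken from GENCODE vM21 by Ensembl ID, and promoter windows from RefSeq (GRCm38.p6).

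Barcodes with at least 1000 UMIs, 200 genes and at most 25% mitochondrial UMIs were kept, and no cell was removed as a doublet. Scrublet was run at 0.8% doublets per 1000 cells. A cell was said to carry markers of another class when that class's summed marker share was at or above the 5th percentile of the class, on 3 or more UMIs. UMIs were summed over the mast cells of a library and given per 1000000 UMIs (CPM) with exact Poisson intervals. Shares have Clopper-Pearson intervals and ratios exact conditional binomial intervals. Genes with at least 50 UMIs over both libraries were compared, and 2-fold was the limit for a difference, with no test. A count of 0 was taken to allow 3 counts. Shares of cells with a UMI were also given after each cell was thinned to 1000 UMIs.

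Named genes were the members of 31 gene lists, the 12 genes highest and the 12 lowest in KO by the interval bound nearest 0 at 30 CPM or more, and the 25 highest in mast cells over other barcodes. The mast cells and the lists were chosen with earlier results of these data known. The ranges of connective tissue protease share, the 15 genes ranked each way between them, Mrgprb1, Mrgprb2, Pecam1 and Ifitm1 were chosen after seeing the data. Some named-gene results are not reported here. Alternatives varied the protease share, UMI, mitochondrial and count limits, doublet removal, free RNA subtraction, scaling and fold limit. The scripts were tested on simulated data. Sums and intervals used numpy 2.4.6 with scipy 1.17.1 in Python 3.11.15, tables pandas 2.3.3, doublet calls scanpy 1.11.5, alignments biopython 1.88 and plots matplotlib 3.10.9.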

Additional observations from a re-analysis of the deposited data

How the results depend on the processing

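The lower mast cell share in the KO library kept its direction under all 10 alternatives. No paired analysis was possible because each genotype has 1 library and no test was run. Settings that leave out the top cell of a gene, or the KO barcode with most Lyz2 UMIs, were chosen after seeing the data, and leaving out 1 cell takes a larger part of 47 KO than of 124 WT cells. Of 3028 genes, 63 were 2-fold higher and 64 lower in KO (127 in all). These counts were 101, 117 and 218 as a mean over cells, 273, 316 and 589 at 20 UMIs, 20, 23 and 43 at 100 UMIs, and 280, 255 and 535 at a 1.5-fold limit. With median-of-ratios scaling 37 were higher, and without the top cell of each gene 34 were higher and 126 lower. The connective tissue share of protease UMIs (4.72% in WT, 4.09% in KO) was 4.40% and 3.61% with a 5% protease share, 4.48% and 3.71% at 2000 UMIs, and 6.50% and 7.94% as a mean over cells. In KO it was 3.80% with a 10% mitochondrial limit, 5.52% after Scrublet removal and 3.65% without barcodes with other markers, and in WT 4.57% without the top cell. The macrophage and MHC class II values rested on few barcodes. With a 5% protease share, log2 ratios of KO over WT were -0.74 (MHC class II median), -1.77 (Ctss), -1.74 (C1qb), -0.72 (Lyz2), -0.41 (Spp1), -2.87 (C1qc), -1.28 (Cd74), -0.33 (H2-Ab1), -0.19 (H2-Aa) and 0.024 (Id1). After Scrublet removal the same list was -0.80, -1.88, -0.84, -1.10, -0.20, -1.64, -1.07, -0.64, -0.53 and 0.53, and S100a6 was 0.10. Without barcodes with other markers it was -0.72, -1.97, -1.17, -0.52, -0.53, -1.97, -1.19, -0.51, -0.25 and 0.26. Without the KO barcode with most Lyz2 it was -0.77, -2.09, -1.18, -0.91, -0.30, -1.95, -1.11, -0.44 and -0.34, Id1 aside. Without the top cell, the MHC class II median was -0.40, Ctss -1.79, C1qb -1.04, Lyz2 -0.43, C1qc -1.81, Cd74 -0.73, H2-Ab1 -0.073 and H2-Aa -0.076. As a mean over cells Cd74 was -0.057, and with a 1% protease share Mmp7 was 1.09. Over all settings Mcpt8 ranged from 1.28 to 1.73, Angpt1 from 0.73 to 1.51, Klf2 from 0.92 to 1.36, Ctla2a from -1.67 to -1.07, Plac8 from -1.42 to -1.14, Mcpt9 from -1.69 to -0.88, Tpsb2 from -1.48 to -0.51, Cxcl2 from -0.14 to 1.37 and the heat shock median from -0.75 to -0.48. The causes of these shifts were not tested.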
